A study of Homo sapiens with 12 samples.

Results

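The IL10 family cytokines and the IL10 receptor chains were examined as a group of 6 genes, IL10, IL19, IL20, IL24, IL10RA and IL10RB, chosen by symbol from the 58735 genes of the count table. The choice rests on symbols and not on a threshold of any value. The libraries came from THP-1 macrophages, that is, cells of a human monocytic leukaemia line used as a model of macrophages. One group of 6 libraries received the miR-122-5p mimic and the other 6 a control miRNA mimic, both at 30 nM with RNAimax for 24 h, and both groups were then rested and stimulated with LPS for 4 h. Thus every library is LPS-stimulated and transfected, all come from 1 cell line, and no unstimulated or untransfected group is compared here. Whether the 6 libraries of a group are separate cultures is not in the labels, so the p-values speak of variation among libraries that could be purely technical. In bulk RNA, fewer expressing cells and less RNA per cell cannot be told apart.

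IL10 is a cytokine that macrophages release after LPS and that restrains their own production of inflammatory cytokines. It binds a receptor of 2 chain types: IL10RA, which binds IL10 with high affinity and recruits JAK1, and IL10RB, which recruits TYK2 and is shared with the receptors of IL22, IL26 and the type III interferons. The receptor signals mainly through STAT3, whose target SOCS3 is a feedback gene. IL19, IL20 and IL24 lie beside IL10 on chromosome 1 and signal through other receptors, built from IL20RA or IL22RA1 with IL20RB.

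The transfected miRNA is shown first because its seed, bases 2 to 8, in capitals, is what target matches were searched with. The sequence is from RefSeq (GRCh38.p14, chr18:58451088-58451109, plus strand).

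hsa-miR-122-5p: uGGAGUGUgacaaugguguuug

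No match to bases 2 to 7 of the miRNA was found in the principal 3′ UTR (GENCODE release 29) of IL10 (1034 bases), IL19 (359 bases), IL20 (659 bases), IL24 (806 bases) or IL10RA (1838 bases). Of the genes tested and with a 3′ UTR, 8583 (67.2%) likewise had none, with a median log2 fold change of 0.002. The absence of a match is a description of letters in these transcripts and says nothing of indirect effects.

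The data were 12 libraries of 29473750 to 39468157 counts. After a filter on low counts 15471 genes were tested, and 7810 of them (50.5%) passed an adjusted p of 0.05. Of all genes tested, 26.2% were lower and 24.3% were higher with miR-122-5p, and 29.5% had groups that did not overlap. Over all tested genes the median log2 fold change was 0.007. The macrophage markers CSF1R, ITGAM, SPI1, FCER1G and TYROBP were abundant, while CD14 (13.6 ± 0.915 and 17.8 ± 1.61 CPM), LYZ (11.2 ± 1.16 and 10.5 ± 1.98 CPM) and CD163 (5.12 ± 0.527 and 8.96 ± 0.887 CPM) were low. Of the 12 macrophage markers 10 were tested, with 2 higher and 5 lower, and CD14, CSF1R, FCER1G and CD163 were lower in every alternative fit. The 12 markers summed to 2930 to 3374 CPM with miR-122-5p against 2830 to 3318 CPM with the control. MRC1 was near 0, and so was CD68, of whose exon bases 81.7% are shared with another gene on the same strand. Of the 10 T and NK cell markers CD3D, CD3E and CD2 were at 0 counts in all libraries, of the 7 epithelial markers EPCAM and KRT14 were at 0, and the B cell marker MS4A1 had at most 6 counts in a library. Other genes of these lists were read: CD4 had 102 ± 7.78 and 86.7 ± 7.26 CPM, TRAC 24.6 ± 3.57 and 20.7 ± 1.95 CPM, and PECAM1, of the fibroblast and endothelial list, 255 ± 15.9 and 241 ± 8.16 CPM with miR-122-5p and control. The summed T and NK cell list ran over 125 to 154 and 110 to 133 CPM, with 3 genes higher and 1 lower, the B cell list over 9.65 to 12.7 and 8.42 to 13.5 CPM, with CD79A higher, and the fibroblast and endothelial list over 258 to 295 and 245 to 266 CPM, with 2 genes higher. The part of these markers in the results was not tested. Control library 6 stood apart on the second principal component (score -57.4, against 11.2 to 14.95 in the other controls). One technical measure moved with the groups: the slope of a library's log2 values on transcript GC content, per 10 percentage points of GC, was 0.146 ± 0.0658 with miR-122-5p against -0.146 ± 0.124 with the control (SD, n = 6), without overlap. Such a slope and the treatment cannot be told apart by design. None of the marker genes called higher was called when the slope was fitted as a covariate. ITGAM then stood at -0.009, TYROBP at 0.15, CD4 at 0.003, TRAC at -0.06 and CD79A at -0.06. Calls of genes named below that ended with this covariate are pointed out beside them.

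Of the 6 members 4 had enough counts to be tested and 3 of these passed: IL10RA and IL10 were lower with miR-122-5p and IL24 was higher. For 4 tested genes, 3 passing stands beside the 50.5% of all tested genes, a share from which nothing about so few genes can be read. By size, IL10RA was among the larger differences of the table: 346 of 15471 tested genes (2.24%) fell at least as far. The corresponding shares were 19.4% for the fall of IL10 and 27.1% for the rise of IL24.

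**Figure D1:**
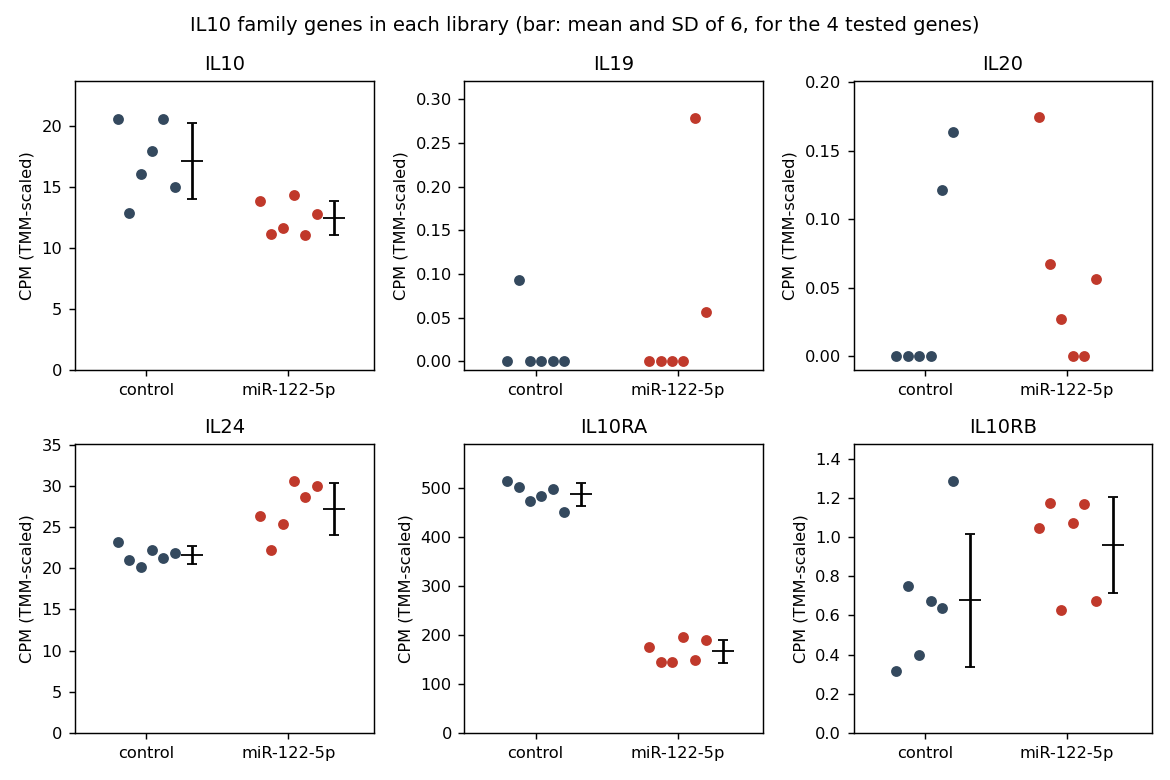
TMM-scaled CPM (y axis, from 0) of the 6 genes in each of the 6 control and 6 miR-122-5p libraries (points), with mean and SD for the 4 tested genes. IL10RA lies at 144 to 196 CPM with miR-122-5p against 451 to 514 CPM with the control; IL10 and IL24 overlap between groups, and IL19 and IL20 stay under 0.3 CPM in every library.

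IL10 (ENSG00000136634, chr1:206767602-206772494, minus strand, GRCh38) had 331 to 475 reads in the miR-122-5p libraries and 412 to 712 in the control libraries. Scaled to library size, its lowest, median and highest levels were 11.1, 12.2 and 14.3 CPM with miR-122-5p and 12.8, 17.0 and 20.6 CPM with the control. Of the 6 control libraries 5 lay above every miR-122-5p library, and control library 2 (12.8 CPM) was within their range. The means were 12.5 ± 1.40 and 17.2 ± 3.12 CPM (SD, n = 6), a log2 fold change of -0.46 ± 0.12 (SE; adjusted p = 0.00208), or 1.38-fold lower. With the GC slope as a covariate the difference shrank to -0.09 (adjusted p = 0.797), while offsets for GC content and length left -0.33 (adjusted p = 0.00902). Control libraries 1 to 6 had 20.6, 12.8, 16.1, 18.0, 20.6 and 15.0 CPM. Their GC slopes, in the same order, were -0.318, 0.0119, -0.0633, -0.0726, -0.223 and -0.214. The miR-122-5p libraries 1 to 6 had 13.8, 11.1, 11.7, 14.3, 11.1 and 12.8 CPM. Their GC slopes were 0.229, 0.192, 0.142, 0.138, 0.145 and 0.0336. The GC content of the longest IL10 transcript is 45.3%, under the median of 48.9% over the tested genes. The part of the slope in the fall of IL10 was not tested beyond these fits.

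Next to IL10 and on the opposite strand, IL19 (chr1:206798870-206842981) and IL20 (chr1:206865354-206869223) were almost unread. IL19 had 15 reads in all 12 libraries together, 10 of them in miR-122-5p library 5. IL20 had 21 reads, at most 6 in any library. Neither passed the filter on low counts, and 3 counts in a library correspond to 0.0775 to 0.101 CPM, so differences of these genes between the groups were not detectable at this depth.

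IL24 (chr1:206897443-206904139, plus strand), the farthest of the 4 cytokine genes from IL10, encodes a cytokine first described in melanoma cells. It had 661 to 1066 reads with miR-122-5p against 606 to 858 with the control. Its lowest, median and highest levels were 22.2, 27.5 and 30.6 CPM with miR-122-5p and 20.1, 21.6 and 23.2 CPM with the control. One miR-122-5p library, number 2, lay within the control range, and the other 5 lay above it. The means were 27.2 ± 3.18 and 21.6 ± 1.05 CPM (SD, n = 6), a log2 fold change of 0.33 ± 0.08 (adjusted p = 0.00250). In all 24 alternative fits IL24 was called higher, at 0.31 to 0.52. Among these, the sum with genes of overlapping exons could not differ from the main fit.

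IL24 and IL10, neighbours on the chromosome, thus moved in opposite directions in the main fit. With the GC slope as a covariate IL24 stood at 0.52 and IL10 at -0.09, the latter not called. The ratio below was not tested with that covariate. The log2 ratio of IL24 to IL10 within a library was 1.12 ± 0.16 with miR-122-5p against 0.35 ± 0.24 with the control (SD, n = 6), and no library of either group reached into the range of the other. The difference of 0.77 had an exact two-sided permutation p of 0.00216, the smallest that 6 against 6 libraries allow (adjusted p = 0.00289 over 4 ratios). Of 8 ratios planned, the 4 with IL19 or IL20 could not be formed for lack of counts.

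IL10 was also set against 2 inflammatory cytokines that LPS induces, TNF and IL6. TNF fell by 0.46 ± 0.09 on the log2 scale (3605 ± 564 against 4966 ± 524 CPM, SD, n = 6). Hence the log2 ratio of IL10 to TNF was -8.16 ± 0.16 with miR-122-5p against -8.19 ± 0.27 with the control, a difference of 0.02 (exact permutation p = 0.877), which does not show that the 2 genes moved alike. With GC and length offsets that difference was 0.28 (exact permutation, adjusted p = 0.0303). IL6 fell by 2.77 ± 0.20 (11.4 ± 4.52 against 77.5 ± 16.2 CPM). As a result, the log2 ratio of IL10 to IL6 turned from -2.17 ± 0.28 in the control to 0.22 ± 0.48 with miR-122-5p (n = 6 each), a difference of 2.38 without overlap (exact permutation, adjusted p = 0.00289). Relative to IL6, IL10 was therefore higher in the miR-122-5p group, although its own level was lower.

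IL10RA (ENSG00000110324, chr11:117986348-118003037, plus strand), the ligand-binding chain of the IL10 receptor, had the largest difference of the 4 tested members. It had 4295 to 6748 reads with miR-122-5p against 14247 to 18705 with the control. The lowest, median and highest levels were 144, 162 and 196 CPM with miR-122-5p and 451, 491 and 514 CPM with the control. All 6 miR-122-5p libraries lay under every control library, with a wide gap between the groups. IL10RA averaged 166.6 ± 23.4 against 487.4 ± 22.7 CPM (SD, n = 6), a log2 fold change of -1.55 ± 0.08 (95% interval -1.71 to -1.39; adjusted p = 1.79e-12), or 2.93-fold lower. In the 24 alternative fits it stayed between -1.60 and -1.46 and was called in each, also with the GC slope as a covariate (-1.46).

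IL10RB (ENSG00000243646, chr21:33266358-33310187, plus strand), the shared signalling chain, had 23 to 42 reads with miR-122-5p against 11 to 47 with the control. The lowest, median and highest levels were 0.629, 1.06 and 1.18 CPM against 0.318, 0.655 and 1.28 CPM, and the groups overlapped. The highest value of all was that of control library 6, whereas the other 5 controls reached at most 0.748 CPM, within the range of the miR-122-5p libraries or under it. The log2 fold change was 0.50 ± 0.34 (95% interval -0.17 to 1.16; adjusted p = 0.237). Without control library 6 it was 0.79 (adjusted p = 0.0530), not called. Its level is uncertain, because 1732 of the 1963 bases (88.2%) of its principal transcript also belong to AP000295.1, an annotated gene on the same strand. AP000295.1 itself had 0 counts in every library. Where reads that fall in 2 genes are left uncounted, as is usual, such exons give neither gene a count. The log2 ratio of IL10RA to IL10RB was 7.38 ± 0.44 with miR-122-5p against 9.49 ± 0.69 with the control, a difference of -2.11 (exact permutation, adjusted p = 0.00289, n = 6 each).

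Per kilobase of merged exons, the order of the members was IL10RA, IL24, IL10 and IL10RB in both groups. The levels were 20.6 ± 2.89, 13.7 ± 1.61, 5.79 ± 0.648 and 0.212 ± 0.0540 CPM per kb with miR-122-5p. In the control they were 60.2 ± 2.81, 10.9 ± 0.531, 7.96 ± 1.45 and 0.149 ± 0.0750 CPM per kb (SD, n = 6). Each neighbouring pair in this order differed in the same direction in all 6 libraries of both groups (exact sign-flip permutation p = 0.03125, the smallest possible). Per kb of merged exons IL24 thus stood above IL10 in every library, by 1.25 ± 0.16 on the log2 scale with miR-122-5p and by 0.47 ± 0.24 with the control. The distance from IL10RA to IL24 was 0.58 ± 0.13 with miR-122-5p against 2.46 ± 0.08 with the control. With the principal transcript as the length, IL10RA was at 45.1 and 132 CPM per kb, IL10RB at 0.490 and 0.345, and the order of the group means was the same. With that length the control libraries ran over 11.8 to 13.6 CPM per kb for IL24 and 7.88 to 12.6 for IL10. These ranges overlap, so the order of IL24 and IL10 within each library is given for merged exons only. With all its counts divided by the length of the exons it shares with no other gene, IL10RB was at 0.342 and 0.240 CPM per kb. Reads over those exons alone were not counted.

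One window of 250 bases before a RefSeq start is shown for each of the 3 called members, for IL10 the outermost start, because these members moved in different directions. The motifs below were searched on both strands, with matches in capitals: AP-1 (TGANTCA), GAS (TTCNNNGAA), the ISRE core (GAAA and GAAA with any 2 bases between), CRE (TGACGTCA), C/EBP (TTGCNNAA) and the NF-kB motif. They occurred in 6.57%, 6.57%, 3.02%, 1.65%, 9.05% and 5.21% of 35116 such windows. The first window is chr1:206772495-206772744 (minus strand), the second chr1:206897193-206897442 (plus strand) and the third chr11:117989695-117989944 (plus strand), all on GRCh38.p14. The RefSeq start used for IL10RA lies inside the gene as GENCODE annotates it, downstream of the first start there.

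IL10: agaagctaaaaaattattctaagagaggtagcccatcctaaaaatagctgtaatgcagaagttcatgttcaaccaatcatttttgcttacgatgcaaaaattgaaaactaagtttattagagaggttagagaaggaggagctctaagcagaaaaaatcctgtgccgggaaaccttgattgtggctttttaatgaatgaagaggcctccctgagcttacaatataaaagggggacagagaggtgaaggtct
IL24: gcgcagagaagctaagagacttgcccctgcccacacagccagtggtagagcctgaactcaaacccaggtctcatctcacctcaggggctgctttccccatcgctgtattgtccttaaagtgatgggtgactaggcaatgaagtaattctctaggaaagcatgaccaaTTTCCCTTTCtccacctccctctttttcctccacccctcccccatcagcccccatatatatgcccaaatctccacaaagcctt
IL10RA: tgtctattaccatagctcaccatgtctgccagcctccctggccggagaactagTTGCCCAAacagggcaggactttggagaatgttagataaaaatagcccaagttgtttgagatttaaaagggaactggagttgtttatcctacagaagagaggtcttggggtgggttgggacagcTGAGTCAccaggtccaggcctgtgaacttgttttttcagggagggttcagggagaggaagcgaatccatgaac

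None of the motifs was found in the IL10 window shown. RefSeq has other IL10 starts inside the gene: the window before 206770603, not shown, holds an AP-1 match (TGAGTCA) 69 to 63 bases before that start, and the window before 206771189 holds none of the motifs. The IL24 window holds one ISRE core, read on the other strand, 83 to 74 bases before the start. In the IL10RA window an AP-1 match (TGAGTCA) lies 73 to 67 bases and a C/EBP match (TTGCCCAA) 197 to 190 bases before the start. Nothing about the binding of a factor follows from these letters.

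Among the other ligands of the family, 3 of the list of 6 were tested, IFNL1, IFNL2 and IFNL3, and each was lower. They encode type III interferons, antiviral cytokines whose receptor includes IL10RB. Of all tested genes 26.2% were lower. IFNL2 and IFNL3 passed the filter on low counts only through the control group. That they count as tested and lower is thus partly set by the filter, and nothing is read from the count of 3. IFNL1 had 98 to 205 reads with miR-122-5p against 1560 to 2263 with the control, or 4.35 ± 1.26 against 56.5 ± 7.65 CPM (SD, n = 6), a log2 fold change of -3.70 ± 0.15. IFNL2 had 2 reads in the miR-122-5p group and 312 in the control group, and IFNL3 had 0 and 632. Every miR-122-5p library lay under every control library for these 3 genes. Of all tested genes 29.5% had groups without overlap. For IFNL2 and IFNL3 the lack of overlap follows from a miR-122-5p group at or near 0 reads. IFNL2 and IFNL3 are near-identical copies, so their reads may be split between them or left uncounted. IFNL4 had 2 reads in all, and the lymphocyte cytokines IL22 and IL26 had 0 counts in every library.

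Of the other chains of this receptor class none had a call that held in all alternative fits. Of 10 genes 6 were tested, with 1 higher, 2 lower and 3 not called, beside 50.5% called over all tested genes. F3, or tissue factor, the receptor that starts coagulation and shares the fold of this class, was higher at 0.55 ± 0.15 (232 ± 20.1 against 158 ± 53.1 CPM). The interferon receptor chains IFNAR1 (-0.28 ± 0.08) and IFNGR1 (-0.25 ± 0.07) were lower. None of the list was called with the GC slope as a covariate: F3 kept its size at 0.61 (adjusted p = 0.146), IFNGR1 stood at -0.11 and IFNAR1 at 0.13. With GC and length offsets 1 gene was called, F3 at 0.74, and IFNAR1 and IFNGR1 stood at -0.03 and 0.02. IFNGR2 (0.05 ± 0.06), IFNAR2 (-0.15 ± 0.16) and IL20RB (-0.07 ± 0.47), a chain of the receptors for IL19, IL20 and IL24, were not called. Of the exon bases of IFNAR2, 44.2% are shared with another gene on its strand and 83.2% with genes on either strand. IL22RA1, IL22RA2 and IFNLR1 had 0 counts in every library, and IL20RA averaged 4.17 counts. For the cytokines IL24 and IFNL1, then, at least 1 chain of each known receptor was at or near 0 in these libraries.

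In the signalling list of 10 genes, all tested, 2 were higher, 6 lower and 2 not called (median -0.28, against 0.007 over all tested genes). Over all tested genes 24.3% were higher and 26.2% lower. STAT3, the main transducer of the IL10 receptor, had 98.5 ± 5.26 CPM with miR-122-5p against 180.3 ± 4.96 CPM with the control (SD, n = 6), a fall of 0.87 ± 0.06 on the log2 scale without overlap. USP18, an inhibitor of interferon receptor signalling, fell by 1.30 ± 0.08. Both genes were called in all 24 alternative fits. The receptor kinases went apart: JAK1, which pairs with IL10RA, fell by 0.33 ± 0.07, and TYK2, which pairs with IL10RB, rose by 0.35 ± 0.08. With the GC slope as a covariate neither was called (-0.13 and 0.003). SOCS3, the feedback inhibitor that STAT3 induces, rose by 0.39 ± 0.08 (145 ± 13.9 against 110.1 ± 11.99 CPM). Offsets for GC and length took it to 0.11 (adjusted p = 0.180). Of the other inhibitors, CISH (-0.82 ± 0.28) and PIAS3 (-0.24 ± 0.08) were lower, and SOCS1 (-0.16 ± 0.12) and the phosphatase PTPN6 (0.08 ± 0.09) were not called. With the GC slope as a covariate CISH (-0.69), PIAS3 (-0.36) and SOCS3 (0.16) were not called either, and 5 of the 10 genes were called, against 8. Over all tested genes that covariate took the called share from 50.5% to 19.4%.

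Of 20 genes that IL10 is known to induce in macrophages, all tested, 10 were lower, 3 higher and 7 did not pass (median -0.25), beside 26.2% lower and 24.3% higher over all tested genes. MSR1, a scavenger receptor, fell by 2.29 ± 0.11 (21.2 ± 4.29 against 103 ± 7.69 CPM). CCR1, a chemokine receptor, fell by 1.32 ± 0.06, and HMOX1, which degrades heme, fell by 1.20 ± 0.13. IL1RN, the antagonist of the IL1 receptor, fell by 0.71 ± 0.07 from 7674 ± 683 CPM. Each of these 4, the genes of smallest p in the list, had groups without overlap and was called in all alternative fits. TNIP3, CD163 and TNFRSF1A, also lower, were called in all of them too. Over all tested genes 29.5% had groups without overlap, and 19.4% were called with the GC slope as a covariate. The 7 that did not pass were BCL3 (0.13), NFIL3 (-0.14), SBNO2 (-0.10), ZFP36 (0.17), IL4R (-0.16), MERTK (0.06) and DUSP1 (0.12). The 3 genes that rose, DDIT4, SOCS3 and TNFRSF1B, were not called with the GC slope as a covariate (0.57, 0.16 and 0.009), and TNFRSF1B stood at -0.08 with GC and length offsets. Many of these genes also respond to other signals, and no sample here measured IL10 protein or blocked the receptor.

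**Figure D2:**
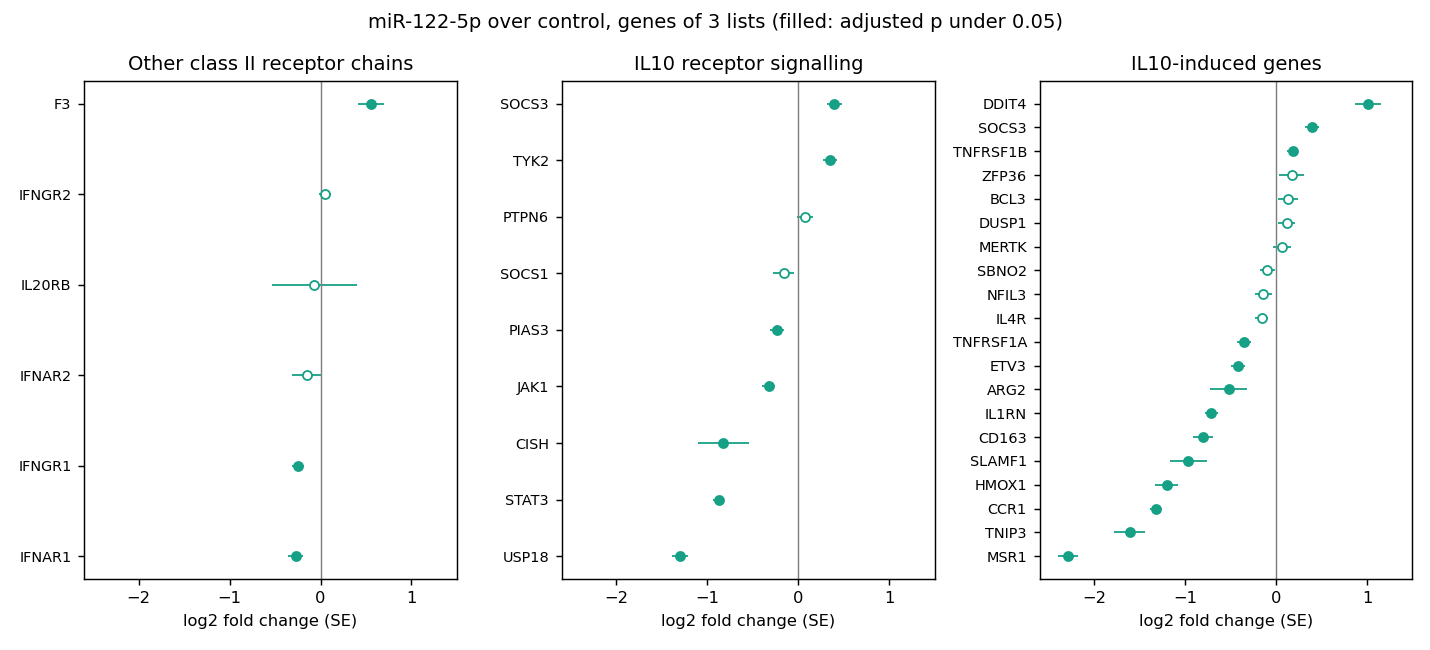
Log2 fold change of miR-122-5p over control with SE (x axis) of tested genes (rows) among the other receptor chains, the signalling genes and the IL10-induced genes; filled points passed an adjusted p of 0.05. MSR1 (-2.29), TNIP3 (-1.61), CCR1 (-1.32) and USP18 (-1.30) lie farthest to the left, and STAT3 is at -0.87. The receptor chains other than F3 lie between -0.28 and 0.05. The calls of F3, IFNAR1, IFNGR1, TYK2, JAK1, SOCS3, DDIT4 and TNFRSF1B were among those that ended with the GC slope as a covariate.

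Of 22 transcription factors known to act on IL10, 21 were tested, with 6 higher, 11 lower and 4 not called (median -0.24), but with the GC slope as a covariate 3 of them were called in place of 17. Over all tested genes the called share went from 50.5% to 19.4% with that covariate. CREM, a CREB-family factor, fell by 2.06 ± 0.09 (18.6 ± 2.72 against 77.9 ± 6.71 CPM) and SP3 fell by 0.50 ± 0.08. MAF, an activator of IL10 in macrophages, was higher instead, with 45.8 ± 9.08 against 24.5 ± 4.23 CPM (0.90 ± 0.13, SE). With the GC slope as a covariate MAF stood at 0.51 (adjusted p = 0.109) and SP3 at -0.12 (adjusted p = 0.508). CREM and STAT3 held in every alternative fit, and so did RELA, which is named here after its values were seen (-0.30 ± 0.08).

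Of 18 kinases upstream of IL10, 17 were tested, with 3 higher, 7 lower and 7 not called, beside the 50.5% called over all genes. MAPK3, the kinase also called ERK1, rose by 0.73 ± 0.09, and MAP2K2, which activates it, by 0.45 ± 0.09. MAP3K8, which starts the same cascade after LPS, fell by 0.54 ± 0.09, and TBK1 fell by 0.62 ± 0.11. Of these 4 genes MAPK3 was called in all alternative fits, and the others were not called with the GC slope as a covariate, where 3 of the 10 calls of the list were left. In that fit 19.4% of all tested genes were called. MAP2K2 then stood at -0.02, MAP3K8 at -0.21 and TBK1 at -0.19.

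Proteins that bind cytokine mRNAs gave 4 higher, 2 lower and 4 not called of 10 genes (median 0.09). Over all tested genes 24.3% were higher and 26.2% lower. The decay factor ZFP36L1 rose by 0.78 ± 0.10 and ELAVL1, which stabilises bound mRNAs, by 0.54 ± 0.07. The decay factor RC3H1 fell by 0.63 ± 0.08 and TIA1, which restrains translation, fell by 0.74 ± 0.11. All of these except TIA1, at -0.15 with the GC slope as a covariate, were called in every alternative fit. In the list of 10 LPS readouts, 9 were tested, with 2 higher, 4 lower and 3 not called, beside the same shares over all tested genes. Besides TNF and IL6, IL23A rose by 0.71 ± 0.09, PTGS2 fell by 0.52 ± 0.10 and CCL4 fell by 0.49 ± 0.09. With the GC slope as a covariate PTGS2 stood at 0.007 and CCL4 at -0.32, neither called.

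On the chromosomes, the genes next to the IL10 to IL24 cluster did not share one direction. Within 500 kb of the cluster 13 genes were tested, with 4 higher, 2 lower and 7 not called (median -0.03), beside 50.5% called over all tested genes. MAPKAPK2, a kinase 33.3 kb from the cluster, had 279 ± 16.7 against 281 ± 11.6 CPM (-0.01 ± 0.06). DYRK3 (-0.03 ± 0.13) and FCMR (-0.04 ± 0.09), which ends 0.247 kb from IL24, were not called either. PIGR, the transporter of polymeric immunoglobulins, was lower (-0.37 ± 0.10), and FCAMR, a receptor for IgA and IgM, higher (0.67 ± 0.25), both at low levels. Neither was called with the GC slope as a covariate, at -0.36 (adjusted p = 0.194) and 0.89 (adjusted p = 0.195).

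Around IL10RA 9 genes were tested, with 1 higher, 4 lower and 4 not called (median -0.30), beside 50.5% called over all tested genes. The nearest tested neighbour, TMPRSS13, a membrane serine protease 56.9 kb upstream, had 0.831 ± 0.174 against 2.99 ± 0.397 CPM (SD, n = 6) without overlap, a log2 fold change of -1.84 ± 0.20. FXYD6 (-1.98 ± 0.19) and FXYD2 (-1.24 ± 0.32), farther on the same side at 108.9 and 157.7 kb, were also lower. Both genes, and UBE4A (-0.39 ± 0.12), which lies on the other side, are named after their values were seen. FXYD2 (-1.60, adjusted p = 0.0693) and UBE4A (-0.02) were not called with the GC slope as a covariate. TMPRSS13 and FXYD6 were called in all alternative fits, but 19.8% of the exon bases of FXYD6 are shared with other genes on either strand. On the other side TMPRSS4, at 74.0 kb, had 1.31 ± 0.57 (adjusted p = 0.0611). IL10RA and 3 tested genes on its upstream side thus fell together, the latter at under 4 CPM on average in either group.

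The region of IL10RB holds 3 other receptor chains, IFNAR2, IFNAR1 and IFNGR2. Of 14 genes tested there none was higher, 6 were lower and 8 were not called (median -0.24), beside 26.2% lower over all genes. Of these 6, 4 were not called with the GC slope as a covariate and are named after their values were seen: PAXBP1 (0.10), IFNAR1 (0.13), SON (-0.14) and CRYZL1 (-0.34). IL10RB-DT, a transcript that starts 0.098 kb from IL10RB on the opposite strand, had 2.33 ± 0.275 against 1.64 ± 0.733 CPM (0.51 ± 0.29, adjusted p = 0.155), not called, as was IL10RB. Of the exon bases of IL10RB-DT, 80.9% are shared with genes on either strand, and the strand setting of the counting is not known.

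**Figure D3:**
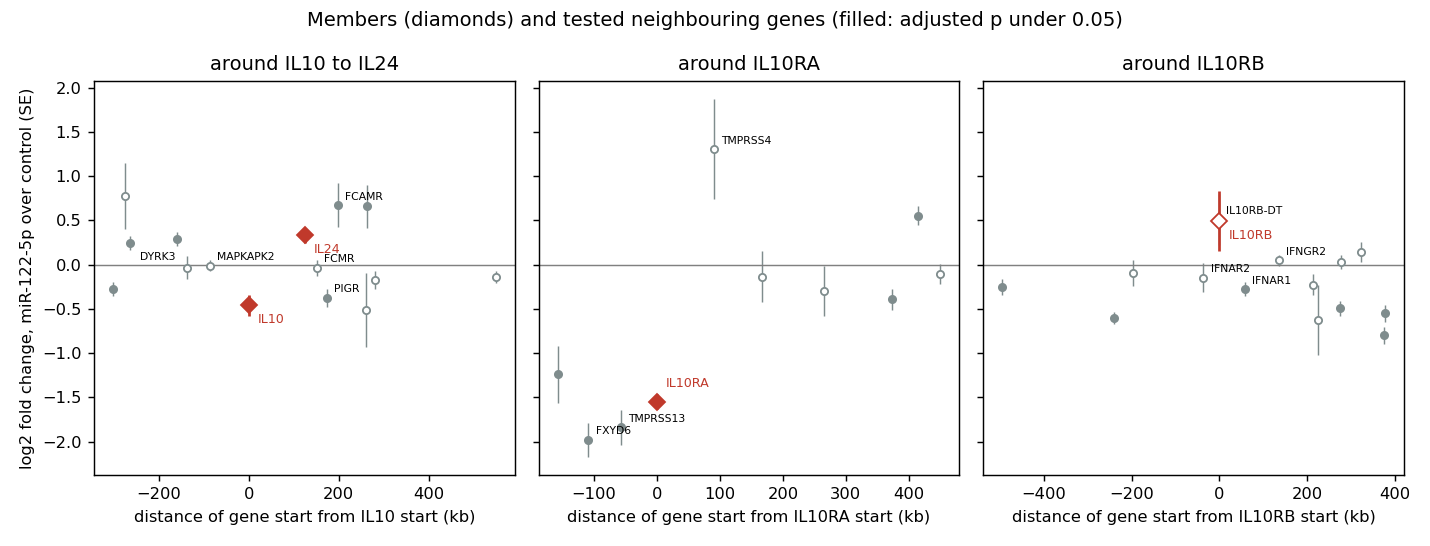
Log2 fold change with SE (y axis) of the tested genes within 500 kb of the IL10 to IL24 cluster, IL10RA and IL10RB against the distance of their start in kb (x axis); diamonds are members, and filled symbols passed an adjusted p of 0.05. IL10RA (-1.55) sits beside TMPRSS13 and FXYD6 (-1.84 and -1.98), while MAPKAPK2 and FCMR lie near 0 on either side of IL10 and IL24; IL10RB-DT is covered by the IL10RB diamond.

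Among 8333 genes compared by Pearson's r of log2 CPM over the 12 libraries, those most like IL10RA were CXCL10 (r = 0.998), GBP4 (0.998) and GBP5 (0.997). CXCL10 is an interferon-induced chemokine, and GBP4 and GBP5 are interferon-induced GTPases. The 12 points fall into the 2 treatment groups, which a pooled r largely reflects. Of deviations from the group means, r was 0.97, 0.92 and 0.93. CXCL10 changed by -3.31 ± 0.18, GBP4 by -3.22 ± 0.14 and GBP5 by -2.12 ± 0.11, each farther than IL10RA. These values pool both groups and are partly set by the choice of the highest r.

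The genes most like IL10 were APOO (r = 0.98, and 0.97 for deviations), ABHD5 (0.93 and 0.85) and ARMC8 (0.93 and 0.84). For IL24 they were LRIG1 (0.95 and 0.86), NOLC1 (0.93 and 0.79) and UBE2G2 (0.91 and 0.81). IL10RB gave lower values, with MAGEF1 (0.86), MFSD2B (0.85) and AKAP8 (0.83). Between members, r of the deviations was 0.69 for IL24 with IL10RA, 0.53 for IL10 with IL10RA and 0.41 for IL10 with IL24. Across all 12 libraries the same pairs had r of -0.72, 0.79 and -0.43. All these points share library depth and the GC slope, and no test is given.

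**Figure D4:**
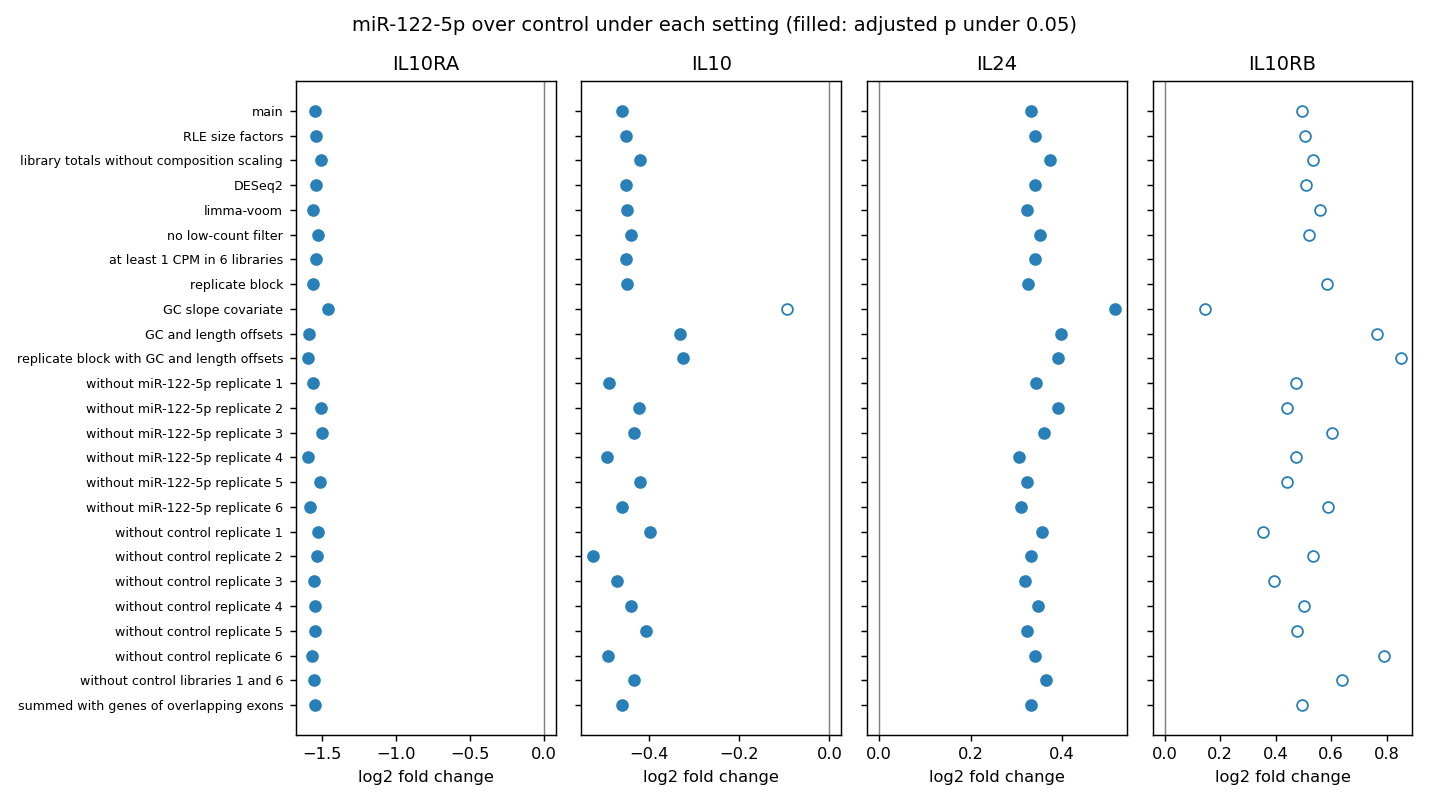
Log2 fold change of miR-122-5p over control (x axis) of the 4 tested members under the main fit and each alternative (rows); filled points passed an adjusted p of 0.05. IL10RA stays between -1.60 and -1.46 and IL24 between 0.31 and 0.52, IL10 moves to -0.09 with the GC slope as a covariate, and IL10RB ranges from 0.15 to 0.85 and is not called in any fit.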

How the data were processed

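RNA of 12 libraries was sequenced. The authors deposited 1 table of raw read counts per gene, not normalized. Listed in the submitters' processing notes are hg38, featureCounts 1.5.0-p3 and HISAT2 2.0.5; the strand setting is not given in the sources used here. Columns were assigned by name; those of the control group were taken as the control mimic from their prefix and number. All 58735 identifiers were found in GENCODE release 29, used for symbols, coordinates, exon lengths, GC content and 3′ UTRs. Promoter windows and the miRNA are from RefSeq (GRCh38.p14).

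In R 4.3.3, the counts were filtered with filterByExpr, scaled with TMM and fitted with edgeR 4.0.16 (quasi-likelihood, two-sided, Benjamini-Hochberg adjustment over 15471 genes, threshold 0.05). CPM are TMM-scaled. Ratios used log2 CPM with a prior count of 2 and exact permutation tests over libraries. Alternatives were DESeq2 1.42.0, limma-voom (limma 3.58.1), other scalings and filters, GC and length corrections, a replicate block and leaving out libraries. Some results, among them 1 gene counted in the signalling list and the 3′ UTR of IL10RB, are not reported here. The fits were tested on simulated data with known changes. Within groups, every pair of libraries differed beyond counting noise (chi-square over degrees of freedom from 7.86 up to 73.0), and each was used as its own sample.

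The members and lists were chosen with earlier results of these data known. Named were all members, up to 4 tested genes of smallest p per list (in the ligand, receptor chain and signalling lists every gene with at least 10 counts on average), tested neighbours within 100 kb, and the 3 most similar genes per tested member. The IL10-induced genes that did not pass are named as well. SOCS3, NFIL3, STAT3 and ZFP36 belong to 2 lists. Reads in exons shared by genes, or in near-identical copies, are usually not counted, and counting error alone is covered by the count limits given.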

Additional observations from a re-analysis of the deposited data

Results flagged for a closer look

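IL19 was set apart in both groups by 1 library far from the other 5. With miR-122-5p, library 5 had 0.279 CPM, with a gap to the next library of 0.798 of the group's range. With the control, library 2 had 0.0935 CPM and the other 5 libraries 0, a gap of 1.0 of the range. Both gaps exceed the 95% critical value of Dixon's test for 6 libraries. These levels rest on 10 and 3 reads. In all, 20 groups of values were examined. Dixon's test assumes normal values, so its rate of about 1 flag in 20 by chance does not apply to groups that are mostly 0. With the other 5 control libraries at 0, any read in library 2 gives a gap of 1.0.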

How the results depend on the processing

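Of 364 alternative values 337 were scored as the same. They kept their direction and side of the threshold, or stayed within the spread of the main value. A count of called genes was scored as the same if it lay within a fixed ratio of the main count, so it could still move. In the alternative that sums members with genes of overlapping exons, only IL10RB had such a gene, AP000295.1, with 0 counts. That alternative could not differ from the main fit, and its values are scored as the same. Over the alternatives IL10RA ran from -1.60 to -1.46 (adjusted p 2.73e-72 to 4.09e-08), IL24 from 0.31 to 0.52 (0.000191 to 0.0113), IL10 from -0.52 to -0.09 (0.000353 to 0.797) and IL10RB from 0.15 to 0.85 (0.0530 to 0.920); with at least 1 CPM in 6 libraries required, IL10RB was not tested. With the GC slope as a covariate IL10 was at -0.0941 (adjusted p = 0.797), and 5 signalling genes, 3 transcription factors, 3 kinases and 0 receptor chains were called; GC and length offsets left 1 receptor chain. That covariate also cut the calls over all genes from 7810 to 3004 (1117 higher and 1887 lower, against 3756 and 4054). The cause was not tested. The IL10 to TNF ratio, near 0 in the main fit, was 0.277 with GC and length offsets; leaving out 1 library at a time gave -0.0701 to 0.0755, and it turned negative without miR-122-5p replicate 3 (-0.0154), miR-122-5p replicate 4 (-0.00431) or control replicate 2 (-0.0701). Without control libraries 1 and 6 together, an alternative chosen after seeing the data, as were the principal transcript and unshared exon lengths, the member calls were the same. Same-numbered libraries did not deviate together (correlations -0.105 to 0.0660), and a replicate block changed no member call (IL10 -0.45, IL24 0.32, IL10RA -1.56, IL10RB 0.59; 7587 calls over all genes). With library totals in place of TMM factors the median of all genes moved from 0.007 to 0.0497. Depth limits IL19, IL20 and IL10RB, and the sharing of exons limits IL10RB.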
